A study of Mus musculus with 4 samples.

Results

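The 10 circadian clock genes Per1, Per2, Per3, Cry1, Cry2, Ciart, Tef, Dbp, Nfil3 and Bhlhe40, among 21883 protein-coding genes, were examined for binding sites of the glucocorticoid receptor (GR). A site was assigned to a gene when the centre of its peak lay in the RefSeq span of the gene or within 100 kb of it. This gave 20 sites in the list made after 1 h of corticosterone and 8 in the list made after 12 h. The assay was ChIP-seq, sequencing of DNA immunoprecipitated with the receptor, in 33AP1C9 cells, a line from mouse mammary epithelial tissue with C127 cells as its parent. All cells, the untreated ones included, carried integrated copies of an MMTV-pp7 reporter and a GFP-tagged PP7 coat protein, and had spent 48 h in medium with 10% charcoal-dextran serum. The groups were untreated cells (0 h), cells given 600 nM corticosterone for 1 h, and cells given 600 nM for 12 h, with 1 library each of 79203826, 90556119 and 97749688 tags. The labels also hold a genomic input sample, not used here. The labels name another catalogue number for the second antibody of the cocktail in each sample, input included. These numbers run on evenly through the labels, so it is unclear whether the antibody differed, and if it did, this and the treatment cannot be told apart. Peak lists measure no expression, so the mammary identity of the cells could not be checked against markers.

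GR is a nuclear receptor that moves onto DNA when corticosterone binds it. In the clock, CLOCK and BMAL1 switch on Per, Cry and Ciart genes through E-boxes, and the PER, CRY and CIART proteins in turn repress that pair. DBP and TEF activate, and NFIL3 represses, a further layer of rhythmic genes through D-boxes, while BHLHE40 (DEC1) represses at E-boxes. Glucocorticoids are a known timing signal for clocks outside the brain, with Per1 and Per2 as known hormone-responsive genes.

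A peak stood within 100 kb of 5 of the 10 genes at 12 h (Per1, Per2, Ciart, Tef and Nfil3) and of 8 of 10 at 1 h, these 5 with Per3, Dbp and Bhlhe40. Among all protein-coding genes the shares were 22.3% at 12 h and 37.4% at 1 h. Within 25 kb the members counted 5 at 12 h and 6 at 1 h, against 9.22% and 16.9% of all genes. Within 10 kb they counted 4 and 5, against 6.16% and 11.6%. The members were chosen with earlier results of these data known, so their counts beside these shares are not evidence of enrichment. Cry1 and Cry2, which encode the cryptochrome repressors, had no listed site at either time. The untreated list holds 1 peak in the whole genome, which lay near none of the members. Signal is given as normalised tags, that is sequenced tags in the peak window scaled to a library of 10000000 tags. With 1 library per condition no test across conditions was possible. Intervals are 95% intervals for counting error alone, and a ratio of 12 h over 1 h compares these libraries.

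**Figure D1:**
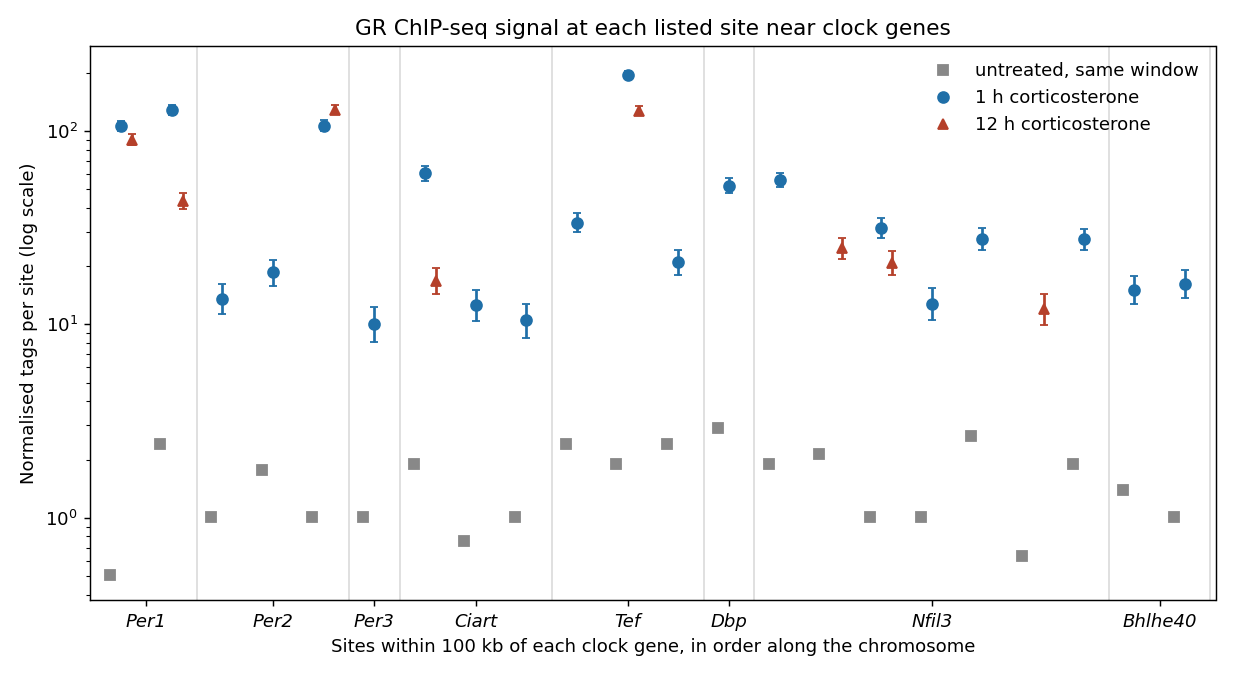
Normalised tags (vertical axis, log scale) at every site near 8 clock genes, in chromosome order within a gene, for untreated cells (grey squares, in the window of the treated peak), 1 h (blue circles) and 12 h (red triangles), with bars for the 95% Poisson interval; a missing symbol means that the site was not listed at that time. Treated values run from 10.0 to 195.0 tags, and the untreated squares lie between 0.505 and 2.90.

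Per1, which encodes a PERIOD repressor protein, carried 2 sites within its span (chromosome 11, 69095108 to 69109965, mm10), and these went apart between the libraries. RefSeq start sites at 69098949 and 69100152 lie in this span. The site called upstream lay before both of these start sites but inside the span, which begins at 69095108. It was centred 1875 bp before the first start site, at 69096933 to 69097215. It held 90.3 normalised tags (84.5 to 96.5) at 12 h, against 106.2 (99.6 to 113) at 1 h. The other site was centred 478 bp after the first start site and so lay between both, at 69099286 to 69099568. It held 43.5 tags (39.4 to 47.8) at 12 h, against 128.5 (121 to 136) at 1 h. The upstream site was thus slightly lower at 12 h and the site between the start sites much lower. The log2 ratios of 12 h over 1 h were -0.23 (-0.37 to -0.10) and -1.56 (-1.73 to -1.40). Centred on the median ratio of all sites in both lists they became 0.26 and -1.07, so the direction at the upstream site depends on the scaling.

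Which of the Per1 sites was the stronger differed between the libraries, a comparison inside each library that does not rest on the scaling of tags. The tags of the upstream site over those of the other site came to 2.08 at 12 h and 0.826 at 1 h. The ratio at 12 h was 2.51 times that at 1 h (2.2 to 2.9, exact conditional interval from the tags). Of 29 pairs of neighbouring sites at most 5 kb apart that were listed at both times, 1, the Per1 pair itself, differed by this much, 1.33 on the log2 scale. The median difference over these pairs was 0.51. The Per1 pair was singled out after its values were seen. Before hormone the windows differed too, with 4 raw tags in the untreated library at the upstream site and 19 at the other. The fold of 12 h over untreated was 179 and 18.1, and that of 1 h over untreated 210.3 and 53.6.

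RefSeq promoter windows, from 250 bases before to 50 after a start site, are shown for Per1 because the site with the large difference lies between them. It begins 288 bp beyond the first window and ends 334 bp before the second. Capitals mark the E-box CACGTG, the sequence bound by CLOCK and BMAL1. They are read 5′ to 3′ on the plus strand, chr11:69098699-69098998 and chr11:69099902-69100201 in GRCm38.p6.
Per1 first window: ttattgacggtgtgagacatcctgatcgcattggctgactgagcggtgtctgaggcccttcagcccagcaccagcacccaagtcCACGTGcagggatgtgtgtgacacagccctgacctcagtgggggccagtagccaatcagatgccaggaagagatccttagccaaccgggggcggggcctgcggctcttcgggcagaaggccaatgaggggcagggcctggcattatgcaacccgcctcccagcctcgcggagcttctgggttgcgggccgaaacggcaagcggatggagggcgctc
Per1 second window: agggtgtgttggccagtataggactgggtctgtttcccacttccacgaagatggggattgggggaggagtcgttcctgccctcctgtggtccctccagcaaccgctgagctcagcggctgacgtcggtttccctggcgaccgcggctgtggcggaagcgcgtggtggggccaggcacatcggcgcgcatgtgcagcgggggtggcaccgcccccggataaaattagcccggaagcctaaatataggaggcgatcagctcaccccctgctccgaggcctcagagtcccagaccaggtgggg
The first window holds 1 E-box and the second 0.

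Per2, which encodes another PERIOD repressor, had the one paired member site with more tags at 12 h. This site lay inside the gene (chromosome 1, 91436351 to 91436633) and held 129.3 tags (122 to 137) at 12 h, against 106.8 (100.2 to 114) at 1 h. The log2 ratio was 0.28 (0.15 to 0.40), and 11.9% of the 2436 sites in both lists had a ratio at least as high. Per base of the window the ratio was 0.18. The untreated library held 8 raw tags there, which put the 12 h library 128-fold and the 1 h library 106-fold above it. In the 12 h list it ranked 51 of 2883 by tags, and in the 1 h list 200 of 5638. The Per2 site and the upstream Per1 site, with nearly equal tags at 1 h (106.8 and 106.2), therefore stood apart at 12 h, where their intervals did not overlap. The remaining Per2 sites were weaker and listed at 1 h alone. The one 15.2 kb from the gene held 18.6 tags and is nearer to Ilkap, and the one 59.5 kb away held 13.6 and lies inside Klhl30.

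Per3 had 1 site, listed at 1 h alone, with 10.0 tags. It lay 88.4 kb away and inside Camta1, and 89.8% of the 1 h peaks had at least as many tags. Its fold over the untreated library was 9.95, where the caller asked for at least 6. The Per3 and Cry1 promoter windows are shown as those of repressor genes without a nearby strong site. They are on the minus strand, chr4:151044616-151044915 and chr10:85185005-85185304 in GRCm38.p6. Capitals mark the D-box TTATGTAA in Per3 and the E-box CACGTG in Cry1.
Per3: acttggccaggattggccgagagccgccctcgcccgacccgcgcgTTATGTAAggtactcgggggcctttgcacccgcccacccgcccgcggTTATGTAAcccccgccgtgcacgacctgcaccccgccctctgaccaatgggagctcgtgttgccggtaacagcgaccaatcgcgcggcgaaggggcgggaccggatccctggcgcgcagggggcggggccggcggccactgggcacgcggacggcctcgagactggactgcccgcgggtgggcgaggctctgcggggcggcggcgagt
Cry1: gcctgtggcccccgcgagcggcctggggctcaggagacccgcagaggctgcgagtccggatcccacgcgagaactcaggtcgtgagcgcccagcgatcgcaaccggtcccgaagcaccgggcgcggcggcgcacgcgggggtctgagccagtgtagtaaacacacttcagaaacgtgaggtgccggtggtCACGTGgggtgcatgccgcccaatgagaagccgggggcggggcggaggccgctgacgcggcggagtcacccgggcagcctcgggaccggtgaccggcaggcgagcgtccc
Per3 holds 2 D-boxes and 0 E-boxes, and Cry1 holds 1 E-box. The nearest peaks to the Cry1 start site were centred 846138 bp away at 12 h and 648126 bp away at 1 h, and those to the Cry2 start site 1051432 bp and 424789 bp away.

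Ciart, also called Chrono, had its main site 612 bp upstream of its start site (chromosome 3, 95882699 to 95882981). The site held 16.8 tags (14.3 to 19.6) at 12 h, against 60.4 (55.4 to 65.7) at 1 h. At 12 h 54.4% of the listed peaks had at least as many tags as this site, against 9.99% at 1 h. The log2 ratio was -1.85 (-2.11 to -1.59), and 3.74% of all sites in both lists were as low or lower. Untreated cells gave 18 raw tags in the window of the 12 h peak and 15 in that of the 1 h peak. The fold over untreated came to 7.38 for 12 h, close to the minimum of 6, and to 31.9 for 1 h. The fold over the surrounding 10 kb was 8.58 at 12 h and 31.7 at 1 h. A pair of weaker sites, 75.4 and 98.2 kb away and nearer to Anp32e and Plekho1, held 12.6 and 10.5 tags at 1 h alone.

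The Ciart promoter window, shown for its closeness to this site, ends 221 bp short of the 1 h peak. It is on the minus strand, chr3:95882179-95882478 in GRCm38.p6, with the E-box in capitals.
Ciart: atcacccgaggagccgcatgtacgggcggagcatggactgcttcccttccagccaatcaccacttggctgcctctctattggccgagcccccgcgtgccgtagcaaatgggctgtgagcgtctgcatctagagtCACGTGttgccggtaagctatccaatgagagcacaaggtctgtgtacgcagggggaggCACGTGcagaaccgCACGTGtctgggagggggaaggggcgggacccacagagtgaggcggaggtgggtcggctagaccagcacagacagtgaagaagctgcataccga
It holds 3 E-boxes. Of 8 members with a promoter window, 4 had at least 1 E-box (Per1, Cry1, Ciart and Tef), in 5 of 10 windows, while 7.15% of 32851 windows of all genes had one. The D-box, at 0.938% of all windows, was in the Per3 window alone. The full receptor palindrome (at 0.00913% of all windows), a shorter form of it (0.475%), the cAMP response element TGACGTCA (1.79%) and the AP-1 motif TGANTCA (7.81%) were in 0 of the 10. Both strands were searched, and the longer palindrome also matches the shorter one. A match is a run of letters and not a measured site. None of the member peaks overlapped these windows.

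Tef, a D-box activator gene, had the strongest member site at 1 h. It lay 12.9 kb beyond the gene and nearer to Tob2 (chromosome 15, 81839653 to 81839935), and held 127.8 tags (121 to 135) at 12 h, against 195.0 (186 to 204) at 1 h. The log2 ratio of -0.61 (-0.72 to -0.50) was near the median of all sites in both lists, which was -0.49. By tags it ranked 55 of 2883 at 12 h and 55 of 5638 at 1 h. Its neighbours on either side, 5341 and 6014 bp from its 12 h centre, were listed at 1 h alone. The one 7.60 kb from Tef held 33.6 tags, and the one 19.0 kb away, nearer to Tob2, held 21.0. By the untreated tags in their 1 h windows, each would have met the minimum fold over untreated cells at 12 h from 14.4 tags.

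Dbp, the gene of another D-box activator, had 1 site, listed at 1 h alone (chromosome 7, 45680069 to 45680351). It lay 24.9 kb away, inside Sec1, and held 52.2 tags (47.6 to 57.2), against 2.90 in the untreated library. Of the 689 1 h peaks with at least as many tags, 91.9% were listed at 12 h, and this site was not. Its fold over the surrounding 10 kb at 1 h was 26.8. The untreated library held 23 raw tags there, more than at any other 1 h site of the members, so 17.4 tags would have been needed at 12 h to reach the minimum fold. Fewer tags than that, or a fold over the local region under 6, both leave a site unlisted, and the list does not say which applied. The nearest 12 h peak was centred 2125393 bp away.

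Nfil3, the D-box repressor gene, had the most sites, 3 at 12 h and 5 at 1 h. At least that many stood within 100 kb of 2.12% of all protein-coding genes at 12 h and 1.32% at 1 h. The site nearest to the gene, 5045 bp upstream of its start site (chromosome 13, 52985943 to 52986225), was the one paired between the lists. It held 20.9 tags (18.1 to 23.9) at 12 h, against 31.7 (28.1 to 35.6) at 1 h, a log2 ratio of -0.60 (-0.87 to -0.34). The site also lies inside the long noncoding RNA gene Gm33424, 119 bp from its start site. The sites 26.0 and 20.5 kb from Nfil3, also inside Gm33424, held 27.7 and 12.8 tags at 1 h and were not listed at 12 h.

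At both ends of the Nfil3 interval, a site was listed at each time without overlap. At the end inside Auh, the 12 h peak (52892784 to 52893086) held 24.8 tags and the 1 h peak (52892237 to 52892519) 55.9, with 265 bp between their edges. At the other end, the 12 h peak 50.6 kb from the gene (53033315 to 53033617) held 12.0 tags and the 1 h peak (53033905 to 53034187) 27.5, with 288 bp between them. The caller keeps peaks at least 604 bp apart at 12 h and 564 bp apart at 1 h. The centres here were 557 and 580 bp apart, so the 12 h list could not hold both peaks of a pair. The 1 h list could have held both at 580 bp, and did not list the 12 h position there. An unlisted position may also lie under another minimum of the caller, so these listings alone show neither a gain nor a loss. Among all 447 peaks listed at 12 h alone, 6.49% had a 1 h centre within 1000 bp. The 12 h peaks of these pairs and the Nfil3 site of 12.8 tags are outside the rule for named sites and were added after their values were seen.

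Bhlhe40, the gene of the E-box repressor DEC1, had a pair of weak sites, both listed at 1 h alone. They held 15.1 tags at 42.9 kb and 16.2 tags at 85.6 kb from the gene, the second nearer to Arl8b. These values are under the median of the 1 h list, 18.3. By the untreated tags in their 1 h windows, they would have met the minimum fold at 12 h from 8.33 and 6.06 tags. No listed 12 h peak held fewer than 6.96 tags, so the value for the second site lies below every listed 12 h peak. The nearest 12 h peak was centred 616268 bp from the first Bhlhe40 site.

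**Figure D2:**
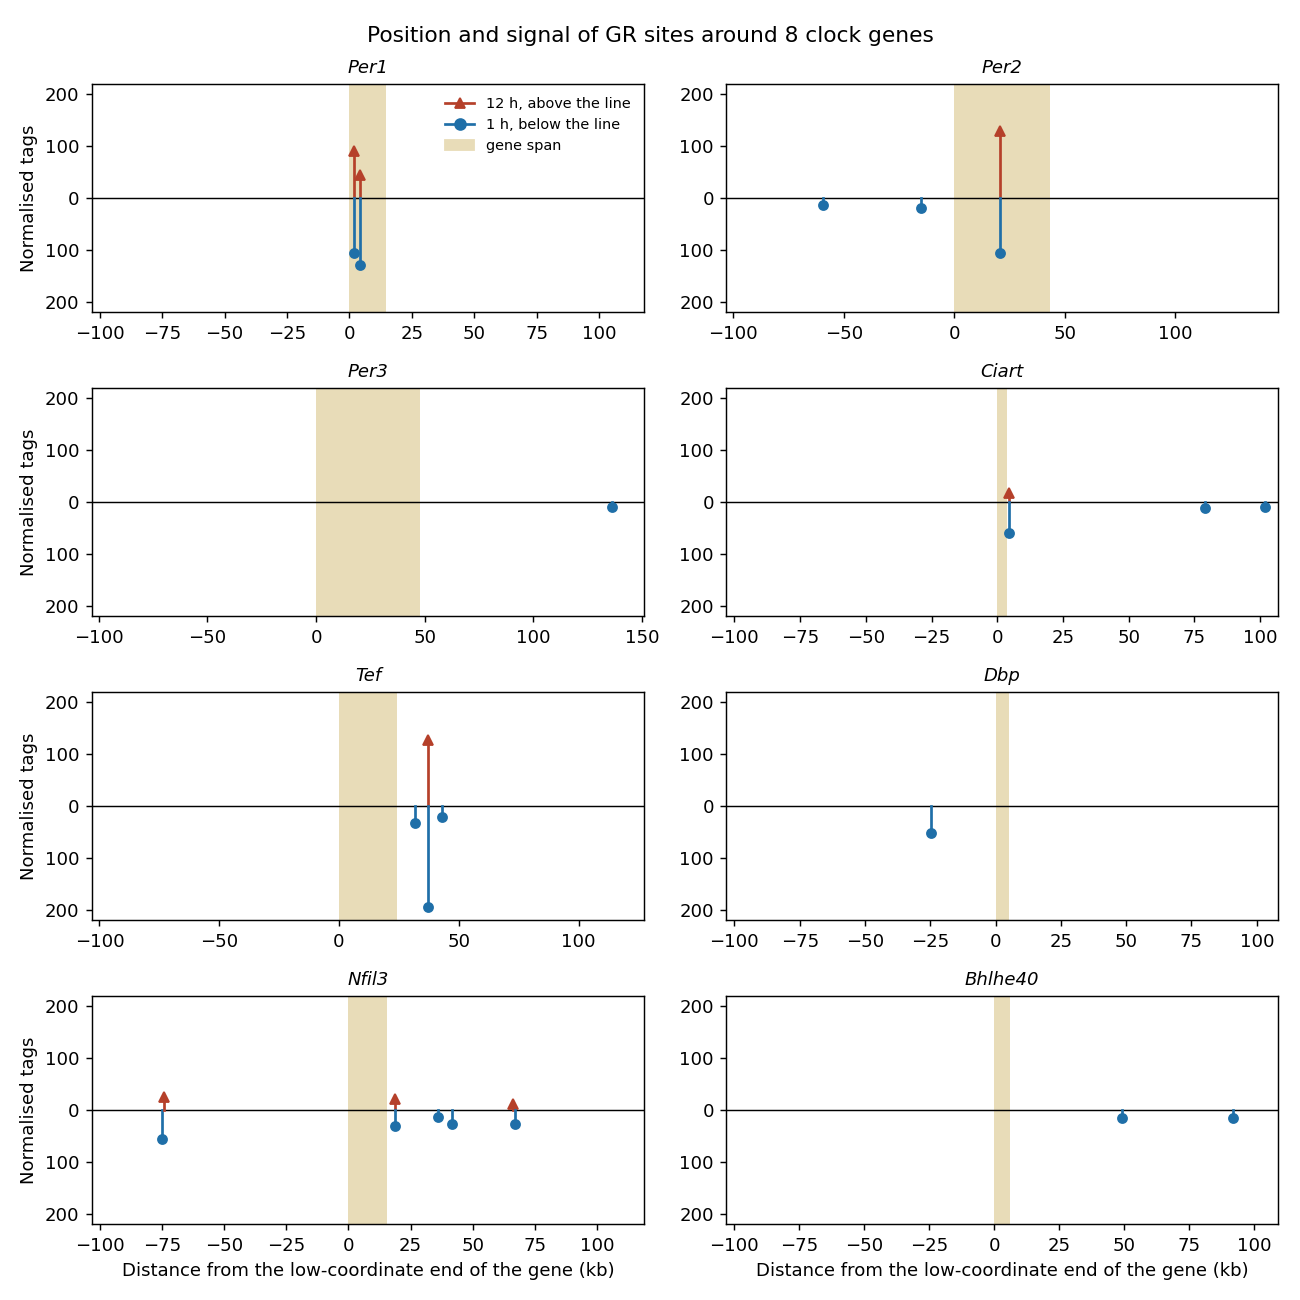
Sites around 8 clock genes, by distance in kb from the low-coordinate end of the gene span (shaded), with normalised tags at 12 h drawn upwards (red triangles) and at 1 h downwards (blue circles). Per1 and Per2 have strong sites inside the gene, Tef has a group of 3 beyond it, and Nfil3 has sites on both sides.

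Ordered by their strongest site at 12 h, the members ran Per2 (129.3), Tef (127.8), Per1 (90.3), Nfil3 (24.8) and Ciart (16.8). The first 2 did not differ beyond counting error. At 1 h the order was Tef (195.0), Per1 (128.5), Per2 (106.8), Ciart (60.4), Nfil3 (55.9), Dbp (52.2), Bhlhe40 (16.2) and Per3 (10.0). Ciart and Nfil3 did not differ beyond counting error, nor did Nfil3 and Dbp. Another protein-coding gene lay nearer to the ranked sites of Tef and Nfil3, and at 1 h also to those of Dbp, Bhlhe40 and Per3. The site nearest to Nfil3 held 20.9 tags at 12 h and 31.7 at 1 h. Of the sites, 2 of 8 at 12 h and 10 of 20 at 1 h had another protein-coding gene nearer than the member, and 3 in each list lay inside a member, those of Per1 and Per2. The outermost site kept was that of Ciart at 98.2 kb with 10.5 tags, and the first one left out lay 119 kb from Ciart with 18.6 tags at 1 h.

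Over the 6 member sites in both lists, 5 were lower and 1 was higher at 12 h, each with an interval that left out 0. Centred on the median of all sites in both lists, 4 were lower and 2 higher, since the upstream Per1 site turned. Among all sites in both lists 77.2% were lower and 22.8% higher. The median log2 ratio was -0.61 over the members' sites and -0.49 over all. Sites at least 2-fold lower numbered 2, at Ciart and between the Per1 start sites, where the share over all sites was 24.5%. At least 2-fold higher were 0, against 1.44% of all. Both lists were called against the same untreated library, and a ratio exists for a site only when it was listed at both times.

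Closeness to a start site was looked at after the values were seen. The 2 member sites that were at least 2-fold lower at 12 h, at Ciart and between the Per1 start sites, were centred 612 and 478 bp from a start site of their own gene. Over all sites in both lists, 40.2% of the 92 within 1 kb of a RefSeq start site were at least 2-fold lower at 12 h, against 23.8% of the 2344 further away. The 92 include the Ciart and Per1 sites that prompted the split. Start sites came from the promoter windows, which lack some genes, Per2 and Bhlhe40 among them, so sites near those starts may count as further away. The median log2 ratios were -0.75 and -0.49. The third paired member site within 1 kb of any start site, upstream of Nfil3 and at Gm33424, had a ratio of -0.60. These are values of 1 library per condition, and the difference was not tested.

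**Figure D3:**
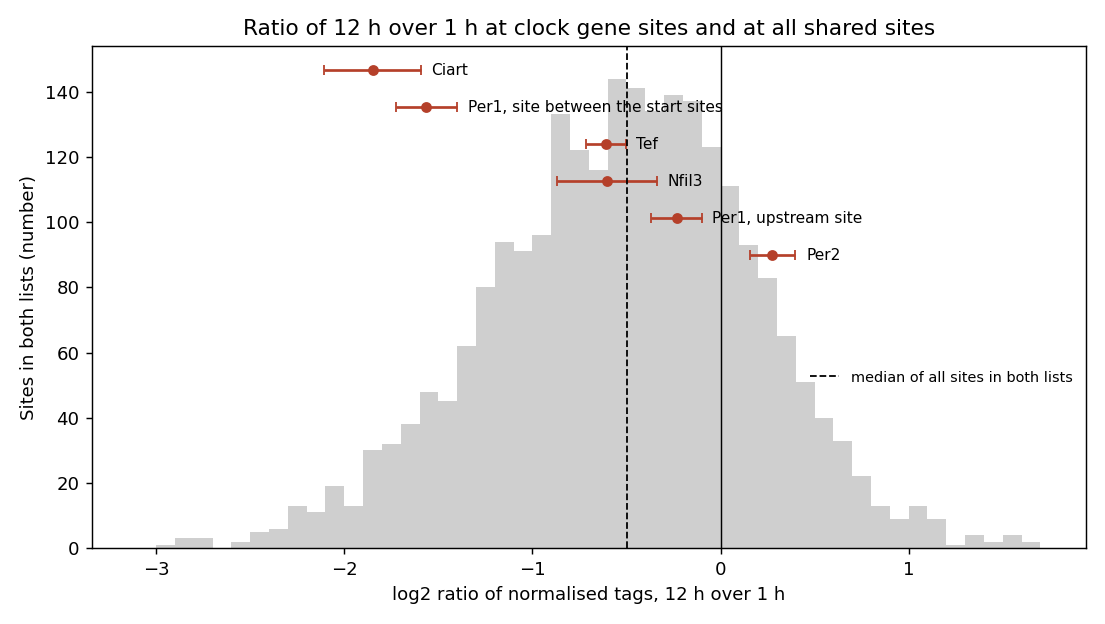
Log2 ratio of normalised tags, 12 h over 1 h, for all 2436 sites in both lists (grey bars, number of sites) and for the 6 clock gene sites (red points with 95% counting intervals, placed at arbitrary heights); the dashed line is the median of all sites. The clock gene sites run from -1.85 at Ciart to 0.28 at Per2, with Tef and Nfil3 close to the dashed line at -0.49.

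Paired sites made up 75% of the 12 h member sites (6 of 8, Wilson interval 40.9 to 92.9%) and 30.0% of the 1 h member sites (6 of 20, 14.5 to 51.9%). For all peaks the shares were 84.5% and 43.2%. The intervals treat sites as independent, though several share a gene, and the difference was not tested. The 2 unpaired 12 h sites are the Nfil3 end peaks described above. With centres paired within 1000 bp, 8 member sites were in both lists. At 1 h, 13 of the 20 member sites held more tags than the median peak, and the 6 paired sites were all among these 13. Of all 1 h peaks above the median 64.3% were listed at 12 h, and of those at or below it 22.2%. The 20 sites had a median of 27.6 tags, against 18.3 for all 1 h peaks. In the same windows the untreated library held 4 to 23 raw tags, with a median of 12.5, against 10.8 expected from its average per base.

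**Figure D4:**
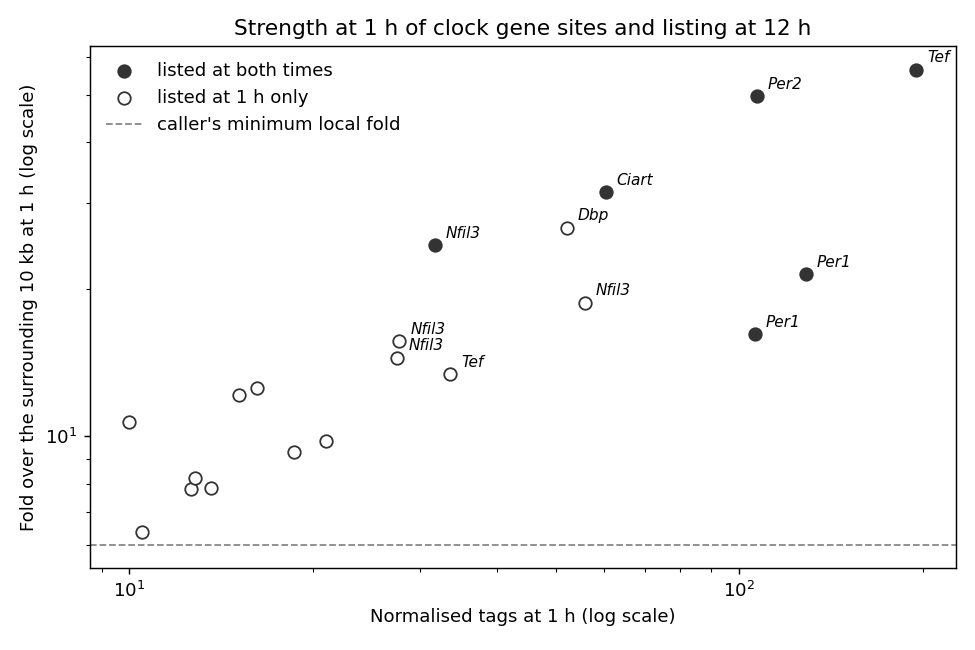
The 20 clock gene sites of the 1 h list by normalised tags at 1 h (horizontal, log scale) and fold over the surrounding 10 kb at 1 h (vertical, log scale), filled where the site was also listed at 12 h and open where it was not; sites over 25 tags carry their gene name and the dashed line is the caller's minimum of 6. The filled sites lie at 31.7 tags and above, with open sites of Tef, Dbp and Nfil3 at 33.6, 52.2 and 55.9 tags among them.

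Of 22 other clock genes, 9 at 12 h and 13 at 1 h had a peak no more than 100 kb away, against 22.3% and 37.4% of all protein-coding genes. Clock, Nr1d2, Hlf, Timeless, Tipin and Gsk3b were among those with none. Within 25 kb the counts were 4 at 12 h and 8 at 1 h, against 9.22% and 16.9% of all genes. This list too was chosen with earlier results of these data known. The strongest site within 25 kb lay inside Usp2, a deubiquitinase gene, with 39.0 tags at 12 h, against 67.1 at 1 h, and a log2 ratio of -0.78 (-0.97 to -0.60). Csnk1d, which encodes a kinase that phosphorylates PER proteins, held 28.1 tags at 12 h and 26.3 at 1 h at a site 11.0 kb away, equal within counting error. Fbxl21, the gene of a cryptochrome ubiquitin ligase, held 10.8 tags at 12 h and 20 at 1 h at a site nearer to Lect2 (-0.88, -1.24 to -0.53). A stronger Fbxl21 site, 87.8 kb away and nearer to Slc25a48, held 43.6 tags at 12 h, against 37.2 at 1 h (0.23, 0.02 to 0.44). Npas2, the gene of a partner of BMAL1, had its strongest 1 h site inside the gene, with 27.9 tags and no overlapping 12 h peak, and its strongest 12 h site elsewhere inside, with 20.8.

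The remaining genes with a site within 25 kb had it at 1 h alone. Btrc and Fbxw11, which encode ubiquitin ligase subunits that act on PER proteins, held 36.8 and 10.5 tags inside their spans. Rorb, an orphan nuclear receptor gene, held 28.7 inside its span, and Nr1d1, the gene of the repressor REV-ERB alpha, held 24.7 at a site inside Thra. Over the 9 sites of these 22 genes in both lists, 7 were lower and 2 higher at 12 h, 4 of the 9 intervals included 0, and the median log2 ratio was -0.33. None was at least 2-fold lower, where the share over all sites in both lists was 24.5%. The difference from the members' 2 of 6 was not tested.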

How the data were processed

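GR ChIP-seq peak lists of 3 libraries were used. The submitters' processing notes name bcl2fastq 2.17, Bowtie2 2.2.6, HOMER and the build mm10. Peaks were called in each library with HOMER findPeaks at a false discovery rate of 0.001, a tag threshold of 75 and folds of at least 6 over the control and the surrounding 10 kb, per the file headers. The control of both treated lists was the untreated library, so listed sites stand above it by construction. The signal is the deposited normalised tag count. Folds are ratios deposited by the authors. The tag counts the authors deposited for treated peaks are scaled to the untreated library; scaled back they gave whole tags for 100% of peaks (within 0.1). The deposited focus ratio (a fraction), score and p-value were not used for results.

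Sites were paired by overlap of at least 1 bp. Ratios carry Clopper-Pearson, tag levels Poisson and shares Wilson intervals (Python 3.11.15, scipy 1.17.1). With 1 library per condition, these cover counting error only. They take tags or sites as independent and can be too narrow, since tags are not independent molecules. Pairing and ratios were tested on simulated data. Genes and promoters came from RefSeq (GRCm38.p6); all 32 clock genes matched, and 8 of 10 members had a promoter sequence. Named are all members with every site (for Nfil3 the 4 strongest at 1 h, its others added after their values were seen) and other clock genes with a site within 25 kb. Members and lists were chosen with earlier results of these data known. Peak sequences were not used here, and a few items are not reported here by name.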

Additional observations from a re-analysis of the deposited data

How the results depend on the processing

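With 1 library per condition, none of the values has a replicate check, and an unlisted site may lie under any of the caller's minimums. No paired analysis was possible because each condition has 1 library. Of 43 recomputed counts and medians 33 stayed within 1.5 times the main count or within the counting interval. Within 25 kb of the gene 11 sites remained at 1 h, and within 10 kb 5 members had a 1 h peak; 10 of the 1 h sites had the member as the nearest gene. With both folds at least 12, the sites numbered 4 at 12 h and 11 at 1 h, 0 paired sites were 2-fold lower and the median log2 ratio was -0.42, because both 12 h folds of the Ciart site and the local 12 h fold of the Per1 site between the start sites (8.61) are under that limit. Pairing centres within 1000 bp, chosen after the data were seen, added the Nfil3 pairs, with a median of -0.89 and 4 sites at least 2-fold lower. Per base of the window, the median log2 ratio of the members was -0.70 and the Per2 ratio 0.18 in place of 0.28. Centred on the median of all sites, the median was -0.11 and the upstream Per1 site became 0.26 in place of -0.23; its direction thus depends on the scaling, and the cause was not tested.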
